A study of Mus musculus with 8 samples.

Results

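The genes of the NF-kappaB subunits and their inhibitors were examined in peritoneal exudate leukocytes, as 10 genes chosen by symbol out of 49671 listed: Nfkb1, Nfkb2, Rel, Rela, Relb, Nfkbia, Nfkbib, Nfkbie, Nfkbiz and Bcl3. RNA-seq was carried out on 8 mice, 4 in each group. The mice were WT C57BL/6 males, 6 to 8 weeks old, and each library is a separate mouse. The SPM group received a panel of specialized pro-resolving mediators (RvD1, RvD2, RvD5, MaR1 and RvE2), at 0.1 ng of each, by i.p. injection on day 0 and then after 2, 5, 7 and 9 days. A sixth injection of the panel accompanied zymosan A (1 mg) on day 12. Zymosan is a yeast cell wall preparation that starts a peritonitis. The vehicle group received vehicle (ethanol in saline) on the same days and the same zymosan, so both groups were inflamed, and no mouse without zymosan was analysed here. Exudates were taken 12 h after zymosan and the cells are labelled as mixed leukocytes, with no sorting stated.

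NF-kappaB is a family of dimeric transcription factors that drive inflammatory genes in leukocytes stimulated through pattern recognition and cytokine receptors. In resting cells the dimers are held in the cytoplasm by IkappaB proteins, and the IkappaB kinase (IKK) complex marks these for degradation so that the dimers enter the nucleus. Several members are themselves NF-kappaB targets, with Nfkbia as the best known negative feedback gene, and in neutrophils and macrophages they are transcribed within the inflammatory response. The transcript level measured here is not the activity of the factor, which is set mainly by protein degradation and nuclear entry.

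Each library held between 15154054 and 21114301 counts on genes, with the fewest in SPM mouse 4. Vehicle mouse 3 had the most genes detected (27592), followed by vehicle mouse 1 (26428), against 23051 to 24409 in the other mice. The deviation of a gene from its mean over the mice was set against exon length, across 8046 genes with a mean of at least 10 CPM. In vehicle mouse 3 this deviation was lower for genes with longer exons (Spearman correlation across genes -0.554). The same correlation was between 0.0225 and 0.337 in the other mice, with the highest in SPM mouse 4. Among the members the exons span from 1577 bases in Nfkbia to 12061 in Nfkb1, beside a median of 4414. With exon bases in brackets, vehicle mouse 3 was the highest for Nfkbia (1577), Nfkbib (2169), Bcl3 (2475), Rela (2716), Relb (3885) and Nfkbiz (5018). It was not the highest for Nfkbie (2422), Nfkb2 (3289) or Nfkb1 (12061), and it was the lowest for Rel (7466). The part of exon length in the members' values was not tested. Markers of the labelled leukocytes were present in every mouse. The 8 neutrophil markers summed to between 16850 and 24694 CPM in the SPM group and to between 12555 and 22998 CPM in the vehicle group, and 6 monocyte markers to 3036 to 4140 CPM and 2700 to 4637 CPM. The 7 markers of resident macrophages summed to between 318 and 507 CPM over the 8 mice, B cell markers to between 499 and 1077 CPM, fibroblast markers to between 36.5 and 99.5 CPM and mesothelial markers to at most 8.51 CPM. Of all 21423 genes tested in edgeR, 6.08% had an unadjusted p under 0.05, and 10121 were higher and 11302 lower. Of the markers, 8 of 8 neutrophil markers were higher after SPMs (2 at an unadjusted p under 0.05), 6 of 6 monocyte markers were lower (1) and 6 of 7 resident macrophage markers were lower (1). Of the B cell markers 5 of 5 were higher (2 at that threshold), as were 6 of 6 T and NK cell markers (0). Of the fibroblast markers 5 of 6 were lower (0), with Col1a1 level between the groups at a mean of 22.2 CPM in each. Of the mesothelial markers 4 of 5 were lower (1), and 4 of 5 dendritic cell markers were higher (0). Mast cell markers were higher for 3 and lower for 2 (0), and the 2 eosinophil markers tested were higher (0). Vehicle mouse 3 had the highest neutrophil and the lowest monocyte marker sum of the vehicle mice. The part of these mixtures in the members' values was not tested, and in bulk RNA fewer cells of a type cannot be told apart from less RNA per cell.

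All 10 members were well expressed and passed the filter of 10 counts over the libraries, the lowest being Nfkbib with 658 to 1312 counts per mouse. The TPM scale divides by the exon length listed for each gene, so the order of genes on it depends on those lengths. On this scale Nfkbia, which encodes IkappaBalpha, was at a mean of 1238 TPM over the 8 mice (SD 165) and ranked 88 of the 49671 genes. Bcl3, encoding a nuclear IkappaB protein, and Nfkb2, encoding the p100 precursor of p52, followed at 281 and 276 TPM. Bcl3 exceeded Nfkb2 in 4 of the 8 mice, so these 2 levels were not separable. Rela, encoding the transactivating subunit p65, was at 163 TPM, Nfkbie (IkappaBepsilon) at 137, Nfkbiz (the nuclear IkappaBzeta) at 114 and Relb at 96.7 TPM. The lowest levels were those of Nfkb1 (the p105 precursor of p50) at 70.6 TPM, Nfkbib (IkappaBbeta) at 67.7 and Rel (c-Rel) at 59.0 TPM. Of the 9 neighbouring pairs in this order, 3 had ranges over the mice that did not overlap: Nfkbia was above Bcl3, Nfkb2 above Rela, and Relb above Nfkb1. The ranges of Rela and Nfkbie overlapped although Rela was the higher in all 8 mice.

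**Figure D1:**
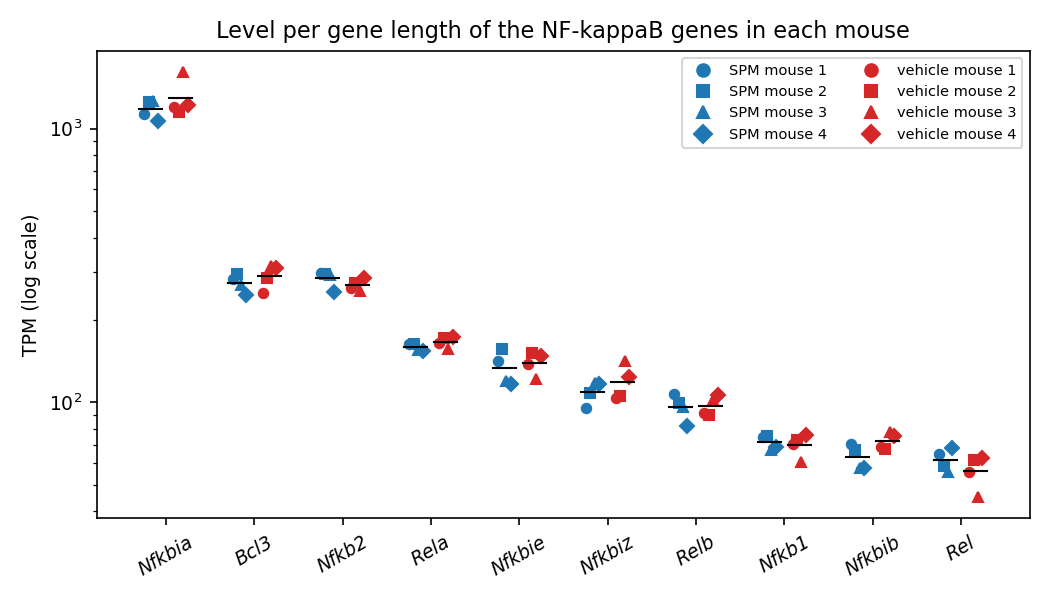
TPM on a log scale of the 10 genes, ordered by their mean, in each of the 4 SPM mice (blue) and 4 vehicle mice (red), with a marker shape for each mouse number and a black line at each group's mean. Nfkbia lay between 1066 and 1612 TPM, above every other member in every mouse, and the groups overlapped for each gene.

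The balance of the members was also expressed per mouse in TPM. Among the 5 subunit genes, Nfkb2 made up between 40.4% and 43.8% of the summed TPM in every mouse, and it was 3.69 to 4.35 times the level of Nfkb1. In CPM, which is not divided by exon length, these 2 genes were close, with means of 321 for Nfkb2 and 300 for Nfkb1. The share and the ratio thus rest on the listed exon lengths, 3289 bases for Nfkb2 and 12061 for Nfkb1. Which of these exons the cells used was not examined. Of the summed TPM of the 3 cytoplasmic inhibitors, Nfkbia made up between 84.1% and 89.0%. The ratio of these inhibitors to the subunits was 1.91, 2.14, 2.17 and 1.98 in SPM mice 1 to 4 and 2.18, 2.05, 2.92 and 2.06 in vehicle mice 1 to 4. Vehicle mouse 3 was the highest, and the other 7 mice overlapped. Nfkbia was 6.92 to 8.17 times as high as Rela in the SPM mice and 6.72, 7.05 and 7.28 times in vehicle mice 2, 4 and 1, against 10.3 times in vehicle mouse 3.

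The question of the comparison was whether repeated low-dose SPM treatment, given before and together with zymosan, went with another level of these genes. The members' log2 fold changes lay between -0.25 and 0.09, with Nfkbib the lowest and Rel the highest. By edgeR's quasi-likelihood test with Benjamini-Hochberg adjustment over 21423 genes, 0 of 10 members had an adjusted p under 0.05 (0% of all genes tested), and their adjusted p lay between 0.790 and 0.984. At an unadjusted p under 0.05, 1 of 10 passed, Nfkbib, against 6.08% of all genes tested, and 3.59% of all genes passed in the lower direction. DESeq2 and limma on log2(TPM + 1) gave 0 members at either threshold. Over all genes they gave 1087 of 35063 and 1168 of 21423 at the unadjusted one, and 0 after adjustment. Of the members, 8 were lower and 2 higher after SPMs in edgeR, with a median log2 fold change of -0.11 beside -0.017 over all genes, of which 11302 were lower and 10121 higher. The groups of 0 members were free of overlap, against 3.83% of all genes tested. These counts do not set the members apart from the genes at large. Below, the values of a group are listed in the order of mouse numbers 1 to 4, on the scale of TMM-normalized CPM, counts brought to one common depth. The smallest p that a two-sided exact permutation test of 4 mice against 4 allows is 0.0286.

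**Figure D2:**
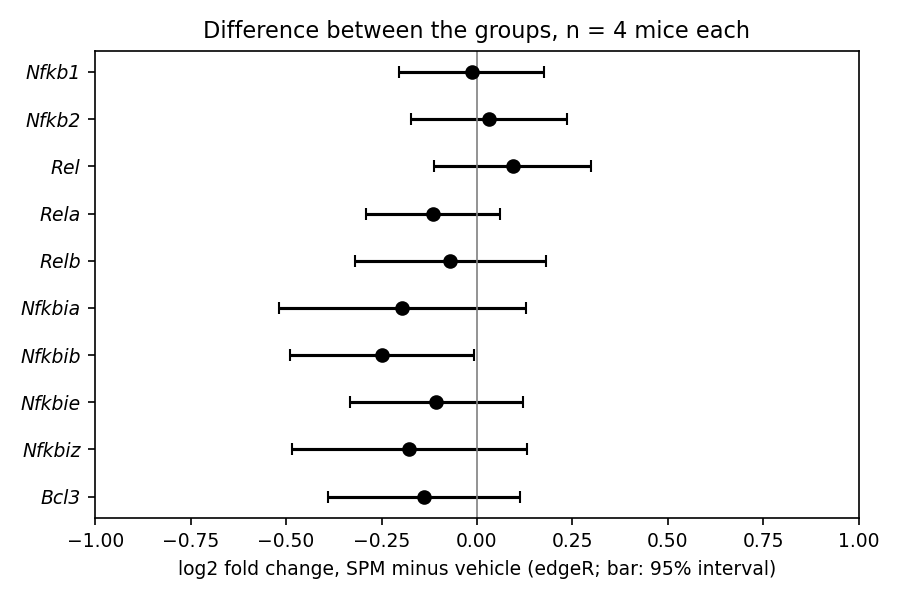
Log2 fold change of each member, SPM minus vehicle, from edgeR with 4 mice per group, with bars for the 95% interval. The values run from -0.25 for Nfkbib to 0.09 for Rel, and the interval of Nfkbib alone leaves out 0.

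To show what the members share in their sequence, the windows of 250 bases before to 50 after the start site were taken from RefSeq (GRCm38.p6), where 7 of the 10 members had at least one window, 9 windows in all. They were searched on both strands for the kappaB consensus, a 10-base pattern of GGG, a purine, any 2 bases, 2 pyrimidines and CC. It was present in 5 of the 7 members, Nfkb2, Rel, Nfkbia, Nfkbie and Bcl3, while 9.55% of the 27025 genes with a window held it. The windows of Rela and Nfkbib did not hold these letters, which says nothing about binding there, and Nfkb1, Relb and Nfkbiz were not searched. One match per gene is shown with 10 bases on each side, 5′ to 3′ in the direction of the gene and with the match in capitals. The matches of Nfkb2, Rel and Bcl3 shown read the same pattern on both strands, and in Nfkb2 and Rel a second match overlaps the one shown by 9 bases.
Nfkb2 (chr19:46304698-46304707, plus strand): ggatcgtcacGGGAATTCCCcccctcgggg
Rel (chr11:23771052-23771061, minus strand): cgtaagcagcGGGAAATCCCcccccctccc
Nfkbia (chr12:55492667-55492676, minus strand): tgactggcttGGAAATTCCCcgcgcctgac
Nfkbie (chr17:45555594-45555603, plus strand): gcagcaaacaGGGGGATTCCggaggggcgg
Bcl3 (chr7:19822744-19822753, minus strand): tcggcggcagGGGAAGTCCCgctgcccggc
That of Nfkbia is on the opposite strand, so the letters shown are its reverse complement. The match of Bcl3 lies just after the start site and the others before it. A match of letters is a description of the sequence and not a measured site.

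The precursor genes Nfkb1 and Nfkb2 encode p105 and p100, which are cut to p50 and p52 and also hold other subunits in the cytoplasm while uncut. Nfkb1 (ENSMUSG00000028163, GRCm38 chr3:135584655-135691547, minus strand) had 305, 319, 289 and 282 CPM in the SPM mice and 297, 297, 289 and 324 CPM in the vehicle mice. The groups overlapped throughout, and Nfkb1 had the smallest variation of the members between mice, with a coefficient of variation of 4.97%. Of the 8046 genes with a mean of at least 10 CPM, 4.01% had a smaller one. Its log2 fold change was -0.014 (SE 0.088, unadjusted p = 0.877 from edgeR), with a 95% interval of -13.1% to 12.9%, and the sign was positive with RLE size factors, with DESeq2 and with limma. Nfkb2 (ENSMUSG00000025225, chr19:46304737-46312090, plus strand) was at 330, 340, 343 and 283 CPM in the SPM mice and at 300, 305, 333 and 332 CPM in the vehicle mice. SPM mouse 4 was the lowest of the 8 and SPM mouse 3 the highest. The log2 fold change was 0.031 (SE 0.095, unadjusted p = 0.750 from edgeR; interval -11.3% to 17.7%). With SPM mouse 4 left out it was 0.10 (unadjusted p = 0.272 from edgeR) and, with the remaining libraries scaled anew, the groups did not overlap, as held for 1357 of the 20946 genes tested without that mouse. On the values listed here they still overlap, since SPM mouse 1 is below vehicle mice 3 and 4. Leaving out SPM mouse 3, SPM mouse 2 or vehicle mouse 1 in its place gave 0.0038, 0.0089 and 0.0073.

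Nfkb2 is the member with the most matches, in 4 separate stretches over 3 windows, of which one lies where 2 windows overlap. Its first window is printed whole to show the pair of stretches before the first start site, with the matched letters in capitals (chr19:46304487-46304786, plus strand).
Nfkb2 promoter: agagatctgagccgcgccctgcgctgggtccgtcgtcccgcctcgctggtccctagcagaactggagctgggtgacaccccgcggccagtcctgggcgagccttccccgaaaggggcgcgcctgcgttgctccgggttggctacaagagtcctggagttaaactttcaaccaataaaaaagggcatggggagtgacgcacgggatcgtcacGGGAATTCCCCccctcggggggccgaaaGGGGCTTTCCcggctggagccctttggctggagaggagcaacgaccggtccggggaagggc

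Rela, Rel and Relb encode the subunits with a transactivation domain: p65, which forms the classical dimer with p50, c-Rel, which is most used in leukocytes, and RelB, the partner of p52 in the non-canonical pathway. Rela (ENSMUSG00000024927, chr19:5637483-5648130, plus strand) had 150, 156, 151 and 143 CPM in the SPM mice and 156, 158, 169 and 167 CPM in the vehicle mice. Each SPM mouse lay below the vehicle median, and a single pair overlapped, with SPM mouse 2 (156.1) just above vehicle mouse 1 (155.7). The log2 fold change was -0.12 (SE 0.081, unadjusted p = 0.179 from edgeR, interval -18.3% to 4.25%), and the exact permutation test of the means gave p = 0.0571. Under library size alone, without SPM mouse 2 and without vehicle mouse 1 the groups did not overlap, with edgeR p of 0.225, 0.171 and 0.181. The same held for 764 of 21423, 1875 of 20966 and 1168 of 20703 genes tested under these settings.

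Rel (ENSMUSG00000020275, chr11:23736847-23770970, minus strand) was at 163, 153, 149 and 174 CPM in the SPM mice and at 145, 156, 133 and 165 CPM in the vehicle mice. Vehicle mouse 3 was the lowest and SPM mouse 4 the highest, so that Rel ran opposite to most members in both of those mice. Its log2 fold change was 0.09 (SE 0.095, unadjusted p = 0.343 from edgeR, interval -7.46% to 23.1%), the largest positive value of the members with all mice in, and it was positive in each of the alternatives run. With vehicle mouse 3 left out it was 0.044 (Nfkb2 0.057) and with SPM mouse 4 left out 0.065 (Nfkb2 0.10), below Nfkb2 in both, while with vehicle mouse 4 left out it was 0.15 (Nfkb2 0.054). In TPM, Rel was 0.358 to 0.443 times the level of Rela in the SPM mice and 0.287 to 0.3598 times in the vehicle mice, where vehicle mouse 3 was the lowest, and the groups overlapped. Relb (ENSMUSG00000002983, chr7:19606217-19629438, minus strand) was at 141, 135, 134 and 108 CPM in the SPM mice and at 124, 118, 156 and 147 CPM in the vehicle mice. SPM mouse 4 was the lowest and vehicle mouse 3 the highest, and the log2 fold change was -0.070 (SE 0.12, unadjusted p = 0.557 from edgeR, interval -19.9% to 13.3%). It was positive without SPM mouse 4 (0.022) and without vehicle mouse 3 (0.0059). With vehicle mouse 1 or vehicle mouse 2 left out it was -0.11, and with vehicle mouse 4 left out -0.031.

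The cytoplasmic inhibitors IkappaBalpha, IkappaBbeta and IkappaBepsilon, encoded by Nfkbia, Nfkbib and Nfkbie, bind the dimers and cover their nuclear localization signal. IkappaBalpha is degraded and made again rapidly, IkappaBbeta more slowly. Nfkbia (ENSMUSG00000021025, chr12:55489411-55492647, minus strand) had 606, 696, 714 and 574 CPM in the SPM mice and 658, 618, 1006 and 683 CPM in the vehicle mice. Vehicle mouse 3 lay far above the other vehicle mice, which were within the range of the SPM mice. The means were 647 ± 68.4 CPM (SD, n = 4) and 741 ± 179 CPM (SD, n = 4). The log2 fold change was -0.20 (SE 0.15, unadjusted p = 0.214 from edgeR, interval -30.2% to 9.26%), and without vehicle mouse 3 it was -0.010 (unadjusted p = 0.921 from edgeR). It was -0.13 without SPM mouse 4 and -0.26 without vehicle mouse 2. Its promoter window is printed whole, as that of the most abundant member, with the match in capitals 29 bases before the start site (chr12:55492598-55492897, minus strand).
Nfkbia promoter: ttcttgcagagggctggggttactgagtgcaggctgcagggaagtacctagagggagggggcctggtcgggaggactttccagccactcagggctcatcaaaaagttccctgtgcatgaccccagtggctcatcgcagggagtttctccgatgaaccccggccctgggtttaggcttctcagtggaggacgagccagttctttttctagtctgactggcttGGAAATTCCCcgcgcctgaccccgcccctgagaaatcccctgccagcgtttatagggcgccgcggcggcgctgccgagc

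Nfkbib (ENSMUSG00000030595, chr7:28758251-28767512, minus strand) had 51.9, 50.9, 44.9 and 42.5 CPM in the SPM mice and 51.8, 49.8, 66.9 and 57.6 CPM in the vehicle mice. Each SPM mouse was below the vehicle median, yet SPM mice 1 and 2 were level with vehicle mice 1 and 2, and the low values were in SPM mice 3 and 4 and the high ones in vehicle mice 3 and 4. The means were 47.6 ± 4.57 CPM and 56.5 ± 7.67 CPM (SD, n = 4 each). The log2 fold change was -0.25 (SE 0.11; unadjusted p = 0.0449 and adjusted p = 0.790 from edgeR), with an interval of -28.8% to -0.452%, and the exact permutation test of the means gave p = 0.143. It stayed negative in every alternative run. With single mice left out its unadjusted p was between 0.0311 and 0.0453 without SPM mouse 1, SPM mouse 2, vehicle mouse 1 or vehicle mouse 2. The other leave-outs are given as log2 fold change and unadjusted edgeR p: -0.22 and 0.107 without SPM mouse 3, and -0.18 and 0.144 with SPM mouse 4 left out. With vehicle mouse 3 left out it was -0.15 and 0.131, and with vehicle mouse 4 left out -0.24 and 0.0862. With both SPM mice 3 and 4 left out it was -0.13 and 0.368. In the same terms DESeq2 gave -0.23 and 0.0690, and limma on log2(TPM + 1) -0.19 and 0.0777. Within edgeR, RLE size factors gave -0.23 and 0.0594, library size alone -0.23 and 0.0562, and filterByExpr -0.24 and 0.0590. The mouse number as a replicate block gave -0.24 and 0.0629, and genes with at least 1 count kept -0.24 and 0.0376. The exons of Nfkbib share 42 bases with Sirt2 on the opposite strand, which had 334% of the counts of Nfkbib. Whether reads were assigned by strand is not given in the sources used here. Sirt2, looked at for this overlap, had a log2 fold change of -0.12 (edgeR, unadjusted p = 0.239).

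Nfkbie (ENSMUSG00000023947, chr17:45555716-45563169, plus strand) was at 117, 133, 104 and 96.0 CPM in the SPM mice and at 117, 124, 117 and 126 CPM in the vehicle mice. The SPM mice held both the highest and the lowest value, and the vehicle mice were within a narrow range. Its log2 fold change was -0.11 (SE 0.10, unadjusted p = 0.330 from edgeR, interval -20.6% to 8.72%), and with single mice left out it ranged from -0.20 (without SPM mouse 2, unadjusted p = 0.0755 from edgeR) to -0.025 (without SPM mouse 4).

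The nuclear IkappaB proteins act on DNA-bound dimers and do not hold them in the cytoplasm. IkappaBzeta, encoded by Nfkbiz, is induced by Toll-like receptor and interleukin-1 signals and is needed for part of the later target genes, and Bcl-3 joins p50 or p52 homodimers. Nfkbiz (ENSMUSG00000035356, chr16:55811375-55838899, minus strand) had 162, 190, 211 and 200 CPM in the SPM mice and 182, 180, 282 and 220 CPM in the vehicle mice. As with Nfkbia, vehicle mouse 3 was the highest and the rest overlapped. The log2 fold change was -0.18 (SE 0.14, unadjusted p = 0.235 from edgeR, interval -28.5% to 9.45%), and it was -0.019 (unadjusted p = 0.863 from edgeR) without vehicle mouse 3. Bcl3 (ENSMUSG00000053175, chr7:19808462-19822770, minus strand) was at 236, 256, 239 and 209 CPM in the SPM mice and at 216, 238, 307 and 272 CPM in the vehicle mice. Vehicle mice 3 and 4 were the highest and SPM mouse 4 the lowest. Its log2 fold change was -0.14 (SE 0.12, unadjusted p = 0.258 from edgeR, interval -23.7% to 8.21%), and with single mice left out it ranged from -0.21 (without vehicle mouse 1, unadjusted p = 0.0979 from edgeR) to -0.042 (without vehicle mouse 3). Its exons share 161 bases with Gm16175 on the opposite strand, which had 193 counts in all against 38122 for Bcl3.

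Of the members' 20 highest and lowest values, 16 lay in vehicle mouse 3 or SPM mouse 4. Vehicle mouse 3 was the highest of the 8 for 6 members, SPM mouse 4 was the lowest for 8, and for Rel these mice were the lowest and the highest. The 6 members highest in vehicle mouse 3 were Rela, Relb, Nfkbia, Nfkbib, Nfkbiz and Bcl3. With vehicle mouse 3 left out, 7 members were lower and 3 higher, with a median log2 fold change of -0.025. With both mice left out, an alternative chosen after seeing these values, 4 were lower and 6 higher, with a median of 0.0085 (0.0020 over all genes). An unadjusted p under 0.05 from edgeR was given to 0 of 10 members, beside 1375 of 20058 genes tested. In that comparison Nfkb2 had a log2 fold change of 0.13 (edgeR, unadjusted p = 0.139) and, with the 6 libraries scaled anew, its groups did not overlap, as held for 2317 of the 20058 genes tested there. On the values listed above SPM mouse 1 is below vehicle mouse 4. As given above, these mice also had the extreme correlations of expression with exon length, and SPM mouse 4 the fewest counts. Their part in these values was not tested.

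**Figure D3:**
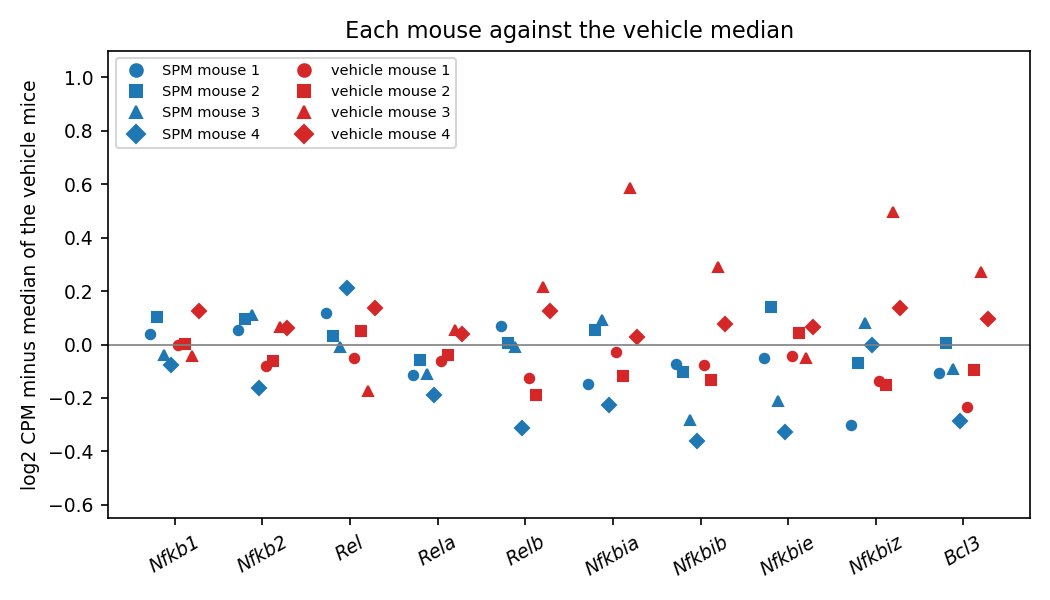
Log2 CPM of each member in each mouse minus the median of the 4 vehicle mice (grey line at 0), SPM mice in blue and vehicle mice in red, with a marker shape for each mouse number. Vehicle mouse 3 (red triangle) stands at 0.59 for Nfkbia and 0.50 for Nfkbiz but at -0.17 for Rel, and SPM mouse 4 (blue diamond) is at -0.36 for Nfkbib and 0.21 for Rel.

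The members moved together in part. The Pearson correlation of log2 CPM was taken over the 8 mice, which share their libraries among all genes and include both groups. Among all pairs of members it was highest between Rela and Nfkbib, at 0.904 (0.873 over 7 mice without vehicle mouse 3). It was 0.860 between Nfkbia and Nfkbiz, and 0.489 without that mouse. Rel and Nfkbia ran in opposite directions, with the lowest correlation of all pairs, -0.839, and -0.648 without that mouse. Other pairs were near 0 over the 8 mice, such as Nfkb1 with Nfkbia (-0.086, and 0.476 without that mouse). Nfkbie with Nfkbiz was at -0.096, and at -0.187 without it. Among 8036 other genes, the patterns most like that of Nfkbib over the 8 mice were those of H2afj (0.982), Tmem128 (0.978) and Tmem259 (0.970). For Nfkbia these were Fkbp8 (0.993), Ubtd1 (0.989) and Gpx4 (0.986). These are descriptions of 8 points, in which vehicle mouse 3 is far from the rest for Nfkbia.

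The rest of the pathway was described by 72 further genes in 5 lists, of which all were tested. In edgeR 33 were higher after SPMs and 39 lower. An unadjusted p under 0.05 was given to 1 higher and 3 lower genes, beside 6.08% of all genes in either direction and 3.59% in the lower one, so the list's count was near that of the genes at large. None had an adjusted p under 0.05, neither in edgeR nor in DESeq2 or limma, which called 0 genes of any kind. The groups of 0 of the 72 were free of overlap, against 3.83% of all genes tested. The median log2 fold change of the 72 was -0.012, near that of all genes. The 2 other IkappaB-related genes were both lower at p over 0.05. Of these, Nfkbid, encoding the nuclear protein IkappaBNS, was at 106 ± 5.42 CPM in the SPM and 112 ± 14.4 CPM in the vehicle group (SD, n = 4 each), with a log2 fold change of -0.073 (edgeR, unadjusted p = 0.488).

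Of 12 genes of the IKK complex and upstream kinases, 9 were higher and 3 lower. At an unadjusted p under 0.05 0 of them passed, beside the 6.08% over all genes. Ikbke, encoding the IKK-related kinase IKKepsilon, was the most abundant at 328 TPM, and its log2 fold change was 0.0012. Tab3, an adaptor of the kinase TAK1, had a log2 fold change of 0.21 (edgeR, unadjusted p = 0.0738), and Tank, which binds TRAF proteins and the IKK-related kinases, of -0.10 (unadjusted p = 0.237 from edgeR). Of 16 receptor-proximal adaptors, 7 were higher and 9 lower, and again 0 passed. Myd88, the adaptor of Toll-like and interleukin-1 receptors, led in level at 301 TPM with a log2 fold change of -0.065, and shares 290 exon bases with Acaa1a, a gene on the opposite strand with 28.1% of its counts. Syk, the kinase downstream of the zymosan receptor dectin-1, had 1028, 998, 1008 and 959 CPM in the SPM mice and 878, 903, 778 and 974 CPM in the vehicle mice. SPM mice 1, 2 and 3 were above each vehicle mouse, and the log2 fold change was 0.18 (unadjusted p = 0.0987 from edgeR). Irak1, a kinase that relays MyD88 signals, had a log2 fold change of -0.14 (edgeR, unadjusted p = 0.125).

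Of 12 feedback inhibitors, 5 were higher and 7 lower. At an unadjusted p under 0.05 there was 1 lower gene, near the 6.08% of all genes (3.59% lower). This was Otulin, a deubiquitinase of linear ubiquitin chains. It had 30.4, 33.7, 30.6 and 35.1 CPM in the SPM mice and 39.3, 38.3, 44.4 and 31.8 CPM in the vehicle mice. Vehicle mouse 4 lay among the SPM mice, and the log2 fold change was -0.24 (SE 0.11; unadjusted p = 0.0453 and adjusted p = 0.790 from edgeR). Cyld, another deubiquitinase, had a log2 fold change of 0.14 (edgeR, unadjusted p = 0.169), and Tnip1, a partner of A20 and the most abundant of the list at 363 TPM, of -0.025 (unadjusted p = 0.843 from edgeR). The gene of A20 itself, Tnfaip3, named after its values were seen, was at 230, 253, 284 and 229 CPM and at 255, 242, 337 and 281 CPM, again highest in vehicle mouse 3, with a log2 fold change of -0.16 (edgeR, unadjusted p = 0.187).

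Of 30 NF-kappaB target genes, 12 were higher and 18 lower, with a median log2 fold change of -0.096. At an unadjusted p under 0.05 there were 1 higher and 2 lower genes, beside the 6.08% of all genes (3.59% lower), and 0 passed after adjustment. The values of these 3 follow as a description. Sod2, the mitochondrial superoxide dismutase, had 317, 326, 351 and 365 CPM in the SPM mice and 420, 353, 527 and 402 CPM in the vehicle mice. SPM mouse 4 alone was above the lowest vehicle mouse, and the log2 fold change was -0.32 (SE 0.12; unadjusted p = 0.0185 and adjusted p = 0.790 from edgeR). Tnf, the cytokine, named after its values were seen, was at 174, 172, 185 and 159 CPM in the SPM mice and at 178, 189, 326 and 197 CPM in the vehicle mice. Vehicle mouse 3 stood far above the others, and the log2 fold change was -0.36 (SE 0.17; unadjusted p = 0.0462 and adjusted p = 0.790 from edgeR). Vcam1, an endothelial and stromal adhesion molecule, was low, at 4.87, 5.30, 12.3 and 13.2 CPM in the SPM mice and at 5.91, 3.13, 4.74 and 6.06 CPM in the vehicle mice, with SPM mice 3 and 4 above all others. Its log2 fold change was 0.83 (SE 0.32; unadjusted p = 0.0226 and adjusted p = 0.790 from edgeR; exact permutation p = 0.229). Lcn2, the neutrophil protein lipocalin 2, was the most abundant target at 3316 TPM, with a log2 fold change of -0.086 (edgeR, unadjusted p = 0.777), and it too was highest in vehicle mouse 3, at 5801 CPM.

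**Figure D4:**
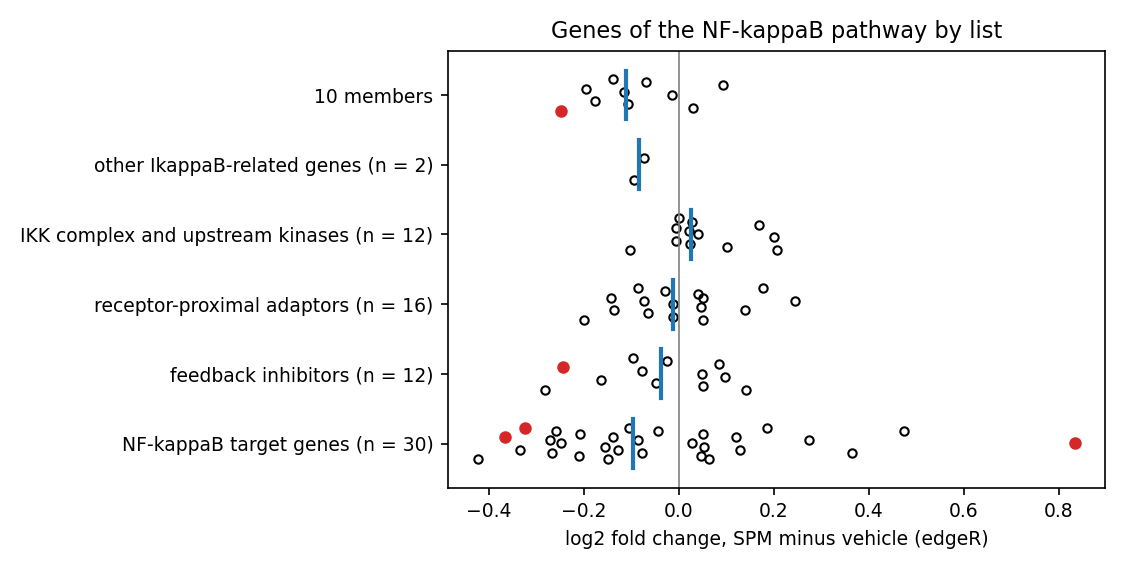
Log2 fold change of each gene, SPM minus vehicle, from edgeR, for the 10 members and 5 lists of other pathway genes, with genes at an unadjusted p under 0.05 filled in red and the list median as a blue line. The filled points are Nfkbib, Otulin, Sod2, Tnf and, far to the right at 0.83, Vcam1.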

How the data were processed

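Exudate leukocyte RNA of 8 mice, 4 per group, was analysed, and groups were taken from the sample labels. The authors trimmed reads with Trimmomatic 0.36, aligned them to GRCm38 with spike-in sequences using STAR 2.5.2b, and counted unique reads in exons per gene with featureCounts (Subread 1.5.2). They tested genes with DESeq2. The annotation release and strand setting are not given in the sources used here. The deposited counts are raw, and the joined and per-library tables were identical. The deposited TPM were made by the authors and equal counts per exon length scaled per library, spike-ins included, within 5.0e-05. A chi-square test of 28 library pairs found no duplicate.

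Here, spike-ins (92 entries) were removed, and genes reaching 10 counts summed over the libraries were scaled by TMM and tested with edgeR 4.0.16 (R 4.3.3), using the quasi-likelihood F test, all 8 libraries, no covariates and Benjamini-Hochberg adjustment over 21423 genes. CPM are TMM-normalized, log2 CPM used a prior count of 2, and intervals are 95%. Standard errors were derived from the F statistic. Exact permutation tests were two-sided. The fits were tested on simulated data. DESeq2 1.42.0 and limma 3.58.1, on log2(TPM + 1) and log2(TPM + 0.1), were alternatives, as were other scalings and filters and leaving out mice. Genes named were the members, from each other list the higher and the lower gene of smallest p and the gene of highest TPM, and the 3 genes most like Nfkbib and Nfkbia. Tnf and Tnfaip3 were named outside this rule, after their values were seen, and Sirt2, Gm16175 and Acaa1a for their exon overlaps. The members and lists were chosen with earlier results of these data known. Promoter windows came from RefSeq on GRCm38.p6, matched by symbol.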

Additional observations from a re-analysis of the deposited data

Results flagged for a closer look

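Of 112 groups of 4 mice examined, 7 held a mouse further from the other 3 than Dixon's 95% limit for 4 samples allows, and chance flags about 1 in 20. Vehicle mouse 3 was this mouse in 6 of them. It was at 1006 CPM for Nfkbia (618 to 683 in the other vehicle mice) and at 1612 TPM (1153 to 1224). Its cytoplasmic inhibitors were 2.92 times the subunits in TPM (2.05 to 2.18), its Nfkbia 10.3 times Rela (6.72 to 7.28), and its Nfkb2 4.23 times Nfkb1 (3.71 to 3.75). Its Tnf was at 326 CPM (178 to 197). The remaining one was SPM mouse 4, with Nfkb2 at 253 TPM (291 to 297 in the other SPM mice). Both mice had the extreme correlations of expression with exon length given above, and the part of this in the values was not tested.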

How the results depend on the processing

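Of the members, Nfkb2, Rel, Rela, Nfkbib and Nfkbiz kept their direction in each of 19 alternatives, and 0 of 10 members had an adjusted p under 0.05 in any. The number of members with an unadjusted p under 0.05 was 0 with RLE size factors (1282 of 21423 genes), library size alone (1233 of 21423), filterByExpr (970 of 14535) and DESeq2 (1087 of 35063). It was also 0 with limma on log2(TPM + 1) (1168 of 21423), on log2(TPM + 0.1) (1099 of 21423) and on genes averaging 1 TPM or more (731 of 14323). With SPM mice 3 and 4 left out it was 0 (978 of 20471 genes). Without SPM mouse 4 and vehicle mouse 3, chosen after seeing the data, it was 0 (1375 of 20058). With single mice left out it was between 0 and 1. With the mouse number as a replicate block it was 0, with 1333 genes at that threshold beside 1303. Same-numbered mice had deviations correlated at -0.122, 0.238, 0.281 and -0.0049, and different-numbered pairs at -0.355 to 0.219. Of the 4 SPM mice, 2 correlated best with the vehicle mouse of their own number. The labels tie no mice together and not every pair passed 0.1, so the numbers were not taken as pairs.

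Some members changed sign. Nfkb1, at -0.014 in the reported fit, was at 0.0049 with RLE size factors, 0.0050 with DESeq2, 0.033 with limma on log2(TPM + 1) and on genes averaging 1 TPM or more, 0.034 on log2(TPM + 0.1), 0.059 without SPM mice 3 and 4 and 0.0052 without SPM mouse 4 and vehicle mouse 3, and with single mice left out it ranged from -0.046 to 0.027. Relb, at -0.070 in the reported fit, was at 0.034 and 0.093 without those pairs (single mice: -0.11 to 0.022), Nfkbie at 0.054 without the first pair, and Nfkbia at 0.054 and Bcl3 at 0.021 without the second.

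With libraries scaled anew in each setting, the members whose groups did not overlap numbered 1 with library size alone (764 of 21423 genes), without SPM mice 3 and 4 (2826 of 20471) and without SPM mouse 4 and vehicle mouse 3 (2317 of 20058), and 0 to 1 with single mice left out (1168 to 1875 genes). Genes with an unadjusted p under 0.05 numbered 2347 with genes of at least 1 count kept, 731 with limma on genes averaging 1 TPM or more, and 816 (without vehicle mouse 1) to 1584 with single mice left out. In the fit of genes with at least 1 count 160 had an adjusted p under 0.05, 0 of them members. The prior degrees of freedom were infinite there, against a median of 6.95 in the reported fit, so that the spread of single genes had no weight. The share of higher among the genes at an unadjusted p under 0.05 was 41.0% with TMM, 51.3% with RLE size factors, 61.9% with limma on log2(TPM + 1) and 67.4% with limma on genes averaging 1 TPM or more. Where a value changed and no reason is given, the cause was not tested. Between 658 and 19733 counts per mouse stood behind each member's value, a depth at which counting error is smaller than the variation between mice for each of the 10.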
